A study of Drosophila melanogaster with 9 samples.

Results

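Oxidative phosphorylation, the final stage of aerobic energy metabolism, was examined through the RNA abundance of 93 of the 17489 genes counted in central brains of Drosophila melanogaster. The genes were chosen by name alone. They were the 80 nuclear genes whose FlyBase symbol begins with ND-, UQCR-, COX or ATPsyn, and the 13 protein-coding genes of the mitochondrial genome, whose symbols begin with mt:. The nuclear genes comprised 40 of complex I (ND-), 9 of complex III (UQCR-), 16 of complex IV (COX) and 15 of complex V (ATPsyn). The mitochondrial genes comprised 7, 1, 3 and 2 of the same complexes.

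RNA came from male w1118CS flies that were 7 days old, with 10 brains pooled in each sample and 3 samples in each of 3 feeding states. The records speak of 4 replicates per state, of which 3 were analysed here. Fasted flies were kept without food, on water alone, for 20 h in all. Refed flies were fasted from 5 PM and moved at lights on, 9 AM, to 400 mM D-glucose for 2 h. Sated flies had food until the last hour before dissection, which they too spent on water. All groups shared the same genotype, sex and age, and no transgene is named for them. They also shared a diet before the feeding states, since all sample titles begin with CD, the study's abbreviation for its control diet. The tissue was the whole central brain, so a smaller number of cells of a type and less RNA per cell cannot be told apart.

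In the inner mitochondrial membrane, complexes I, III and IV pass electrons from NADH to oxygen and pump protons, and complex V, the ATP synthase, makes ATP as the protons flow back. Complex II, which has no mitochondrial gene and is described further below with other genes outside the 93, feeds in electrons from succinate. Each of the proton-pumping complexes and the ATP synthase is built from subunits of both genomes. The nuclear genes are transcribed one by one in the nucleus. The mitochondrial genes are transcribed as long precursors from both strands of a small circular genome and are then cut apart. Neurons are known for a high demand for the ATP that these complexes supply.

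The libraries held between 4957138 and 7897838 counts on genes. Every pair of replicates differed by more than counting noise. The share of counts on the strand opposite to the gene was between 9.59% and 12.4% in 6 libraries. It was 20.6% in replicate 2 of the sated group, and 24.6% and 28.5% in replicates 1 and 2 of the fasted group. The main results are also given without these 3 libraries. The 5 neuronal markers summed to between 7274 and 8744 CPM (counts scaled to the size of the library) and the 5 glial markers to between 1778 and 2099 CPM. The lowest neuronal sum was that of refed replicate 3, and the next lowest was 8089 CPM in a fasted library. The 5 testis markers never summed to more than 5.55 CPM. The nuclear genes of oxidative phosphorylation together held between 20862 and 37133 counts per library and the mitochondrial genes between 105680 and 168383. The replicates are described as biological, each a pool of brains dissected on the same day. Whether they came from separately reared flies is not stated, so p-values measure the spread between these samples only.

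The 13 mitochondrial genes were far more abundant than the 80 nuclear ones, and levels within each genome spanned a wide range. In CPM per kilobase of exon, averaged over the 9 libraries, mt:CoI, the catalytic subunit of complex IV, stood at 6634, mt:CoIII at 2864 and mt:CoII at 1434. The single mitochondrial gene of complex III, mt:Cyt-b, which encodes cytochrome b, stood at 1682 CPM per kilobase, and mt:ATPase6, which forms part of the proton channel of the ATP synthase, at 1385. Among the 7 mitochondrial genes of complex I the level fell from mt:ND5 (1508 CPM per kilobase) through mt:ND1 (1157), mt:ND4 (964) and mt:ND2 (289) to mt:ND4L (36.4), mt:ND3 (21.0) and mt:ND6 (7.98). mt:ATPase8 had 1 count in all 9 libraries together.

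**Figure D1:**
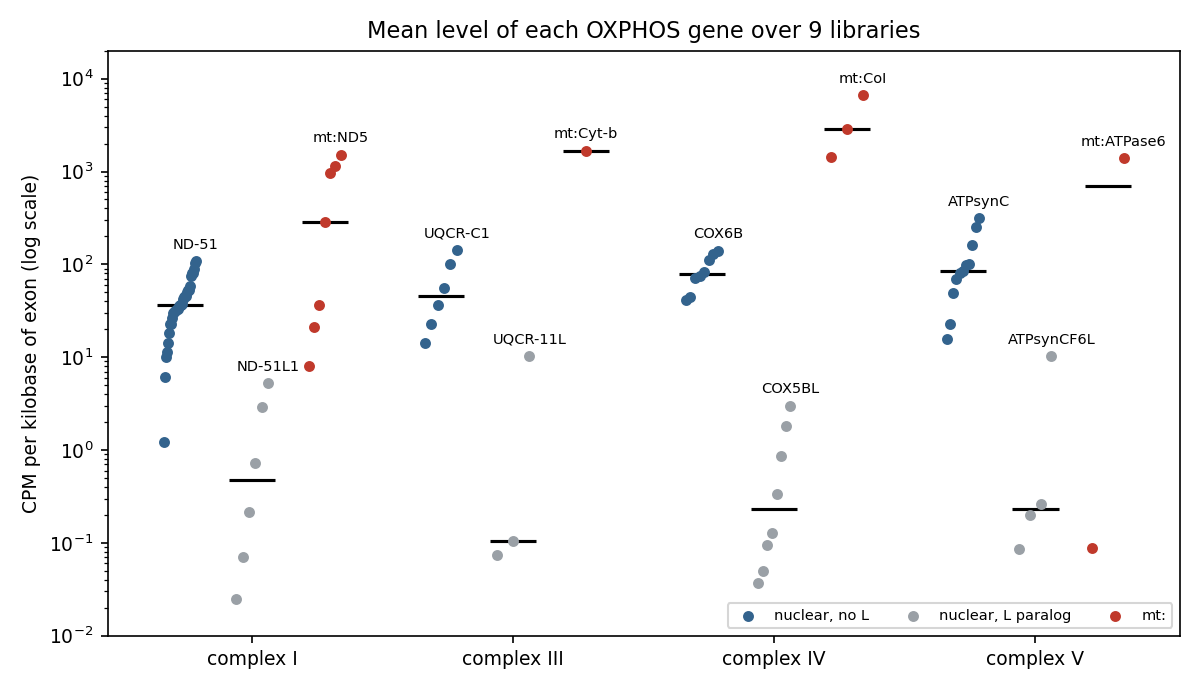
Mean level of each gene over the 9 libraries in CPM per kilobase of exon, on a log scale, with 1 point per gene, split by complex into nuclear genes whose symbol does not end in L, nuclear paralogs whose symbol ends in L, and mitochondrial genes (mt:). Horizontal bars mark the medians, the top gene of each set is named, and ND-MNLL, which had 0 counts, cannot be drawn on this scale. The mitochondrial genes of complexes III and IV all lie above the highest nuclear gene, ATPsynC at 314 CPM per kilobase, whereas mt:ATPase8 and the 3 lowest mitochondrial genes of complex I lie far below the others.

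The 4 mitochondrial genes lowest per kilobase were also the 4 shortest in the annotation, with 162 bases for mt:ATPase8, 291 for mt:ND4L, 354 for mt:ND3 and 525 for mt:ND6. The part of gene length in their low counts was not tested. The exons of mt:ATPase8 overlap those of mt:ATPase6 by 4.32%, and mt:ND4L shares 0.344% of its length with mt:ND4. On the mitochondrial genome (BDGP6, Ensembl annotation) mt:CoI lies at positions 1474 to 3009 and mt:ND2 at 240 to 1263, both on the plus strand. mt:ND5 lies at 6409 to 8125 on the minus strand. The 4 genes of the minus strand (mt:ND1, mt:ND4, mt:ND4L and mt:ND5) together gave between 0.281 and 0.319 counts for each count on the 9 genes of the plus strand. mt:CoI alone supplied between 46.6% and 48.1% of all mitochondrial mRNA counts in every library.

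Among the nuclear genes, the subunits of complex V were the most abundant. Leaving aside paralogs whose symbol ends in L, the median level was 84.1 CPM per kilobase in complex V (11 genes), 78.6 in complex IV (8 genes), 46.0 in complex III (6 genes) and 36.4 in the 32 genes of complex I that had a mean of at least 20 counts per library. The highest of each complex were ATPsynC, which encodes the ring-forming subunit of the membrane rotor (314 CPM per kilobase), UQCR-C1, a core protein of complex III (142), COX6B, a small subunit of complex IV (140), and ND-51, the subunit of complex I that accepts electrons from NADH (107). ATPsynbeta, the catalytic subunit of the ATP synthase, stood at 252 CPM per kilobase. The 61 nuclear genes with a mean of at least 20 counts covered a 108-fold range, and the 12 mitochondrial genes an 831-fold range.

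The nuclear family includes 21 paralogs whose symbol ends in L or in L and a digit, and most were barely detected in the brain. Only 5 of the 21 had enough counts to be tested. UQCR-11L had 279 counts over the 9 libraries and lay 1.36-fold below UQCR-11 per kilobase. ATPsynCF6L had 394 counts and lay 6.80-fold below ATPsynCF6. ND-51L1 lay 20.4-fold and ND-51L2 36.9-fold below ND-51, and COX5BL lay 25.1-fold below COX5B. The other 16 held between 1 and 44 counts each in all libraries together. Reads that map to both a paralog and its partner are left out of the deposited counts, which adds uncertainty to such pairs.

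Of the 93 genes, 74 passed the filter on low counts in each comparison, 62 nuclear and 12 mitochondrial. Besides mt:ATPase8 and the 16 paralogs, ND-B8 and ND-MNLL were not tested. ND-B8 had 30 counts against 7.7 times as many on the opposite strand, where Gs1l lies. ND-MNLL had 0 counts, and its exons lie wholly within those of CG45089 on the same strand. Medians of fold changes below cover the 73 genes with a mean of at least 20 counts, 61 nuclear and 12 mitochondrial.

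No gene of oxidative phosphorylation passed the test between any of the feeding states. By the quasi-likelihood test of edgeR, with p adjusted over all genes tested by the method of Benjamini and Hochberg, 0 of 74 were called in refed against fasted brains (0.111% of all 9025 genes tested were called), 0 of 74 in sated against fasted brains (0.268% of 8957) and 0 of 74 in refed against sated brains (0.179% of 8931). The smallest adjusted p was 0.705, 0.298 and 0.232 in these comparisons. At an unadjusted p under 0.05, 2 of the 74 had a greater value in refed brains than in fasted ones, 13 in sated brains than in fasted ones, and 6 had a smaller value in refed brains than in sated ones, against 2.66%, 5.05% and 5.42% of all genes tested in the same directions. No member passed that level in the opposite directions, in which 4.11%, 4.68% and 6.08% of all genes did. DESeq2 called 0, 1 and 0 members, and the 1 gene was ATPsynC in sated against fasted brains.

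The precision was sufficient to bound most of these differences. The 95% confidence interval of the fold change lay within 1.5-fold in either direction for 65 of the 73 genes in refed against fasted, 64 in sated against fasted and 68 in refed against sated brains. The spread within groups, as the median SD of log2 CPM, was 0.117 for the nuclear and 0.115 for the mitochondrial genes, beside 0.128 for all 7989 genes with a mean of at least 20 counts.

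Between sated and fasted brains most nuclear genes lay on the same side of zero. The mean was higher in sated brains for 57 of the 61 nuclear genes, with a median log2 fold change of 0.12. The fitted change was above 0 for 49.8% of all 8957 genes tested, and the median of the 7986 of them with a mean of at least 20 counts was 0.01. The sated and fasted libraries did not overlap for 18 of the 74 members tested, all nuclear and all higher in sated brains, or 24.3% beside 7.87% of all genes in that direction. 0 members were separated in the other direction (7.16% of all genes). Over the 3 feeding states, the sated mean was the highest for 51 of the 61 nuclear genes, as it was for 35.7% of all genes, and it was the lowest for 0. These differences were small, since a log2 change of 0.12 is a 1.08-fold change, and each gene's own difference failed the correction for multiple testing.

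**Figure D2:**
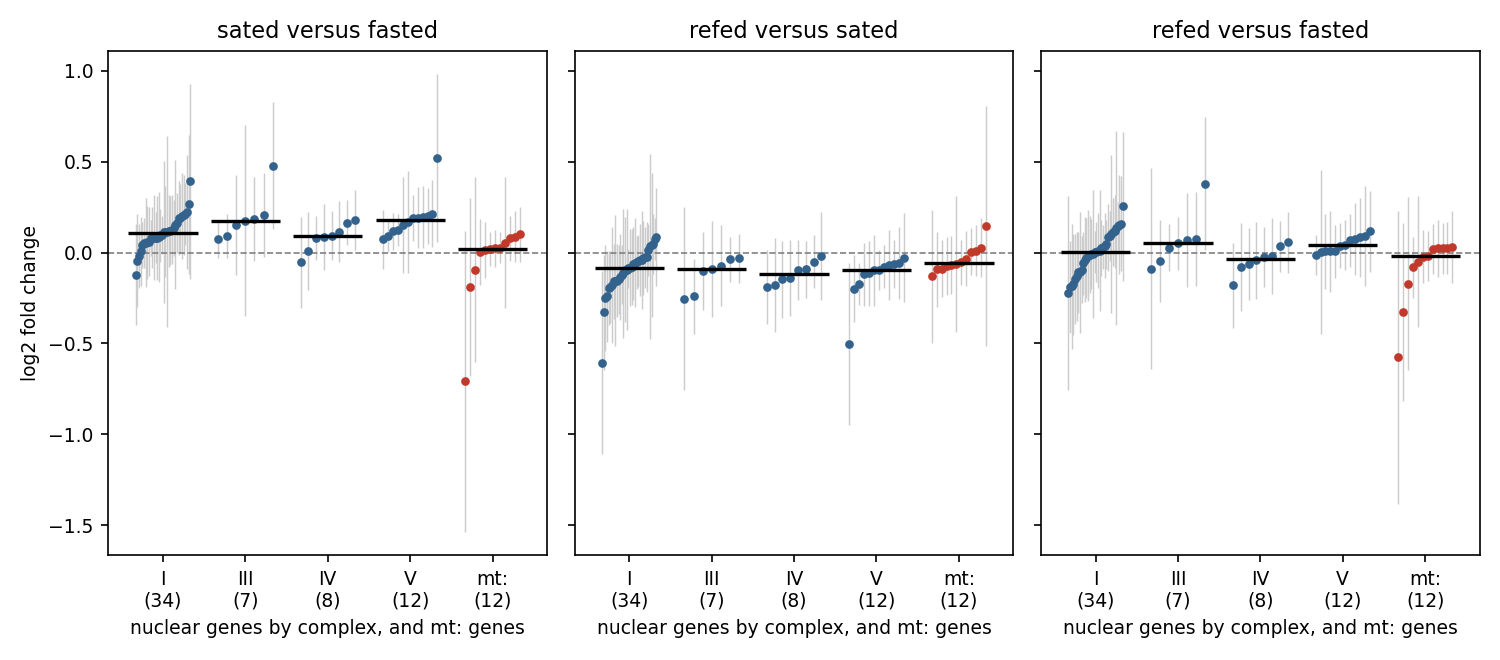
Log2 fold changes of the 73 genes with a mean of at least 20 counts in each comparison, for nuclear genes by complex and for mitochondrial genes (mt:), with the number of genes in parentheses. Each point is a gene with its 95% confidence interval from edgeR and black bars are medians. The nuclear medians in sated against fasted brains lie between 0.09 and 0.18, whereas the mitochondrial median is 0.02.

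The complexes shared this direction with different medians. In sated against fasted brains the median log2 fold change was 0.18 in complex V, where all 12 nuclear genes had a higher mean in sated brains. It was 0.18 in complex III (7 of 7), 0.11 in complex I (31 of 34) and 0.09 in complex IV (7 of 8). The complex V subunits blw and sun, which carry other symbols, are outside these 12 and are described further below. Complex V supplied 9 of the 13 members at an unadjusted p under 0.05. The summed share of nuclear genes in all gene counts was between 0.456% and 0.470% in the sated libraries and between 0.421% and 0.443% in the fasted libraries, so these groups did not overlap. The refed libraries, at 0.430%, 0.430% and 0.492%, fell on both sides.

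The libraries with many opposite-strand counts moved with this comparison, since 2 of the 3 were fasted. Without these 3 libraries the fasted group is fasted replicate 3 alone, set against 2 sated libraries, and the fit over the remaining 6 libraries takes the spread from the sated and refed groups and assumes that the lone library varies alike. In that comparison the fitted change was above 0 in sated brains for 53 of the 61 nuclear genes, with a median log2 fold change of 0.08. It was above 0 for all 12 genes of complex V. The complex V median was then 0.08 in place of 0.18. The medians of complexes I, III and IV were 0.09, 0.18 and 0.07, so complex V no longer lay above complex I. When the opposite-strand share entered the fit as a covariate, the complex V median was 0.12 and the fitted change was above 0 for 55 nuclear genes. The number of members at an unadjusted p under 0.05, which was 13 in the main fit, was 6 without fasted replicate 2 and 8 without sated replicate 2.

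**Figure D3:**
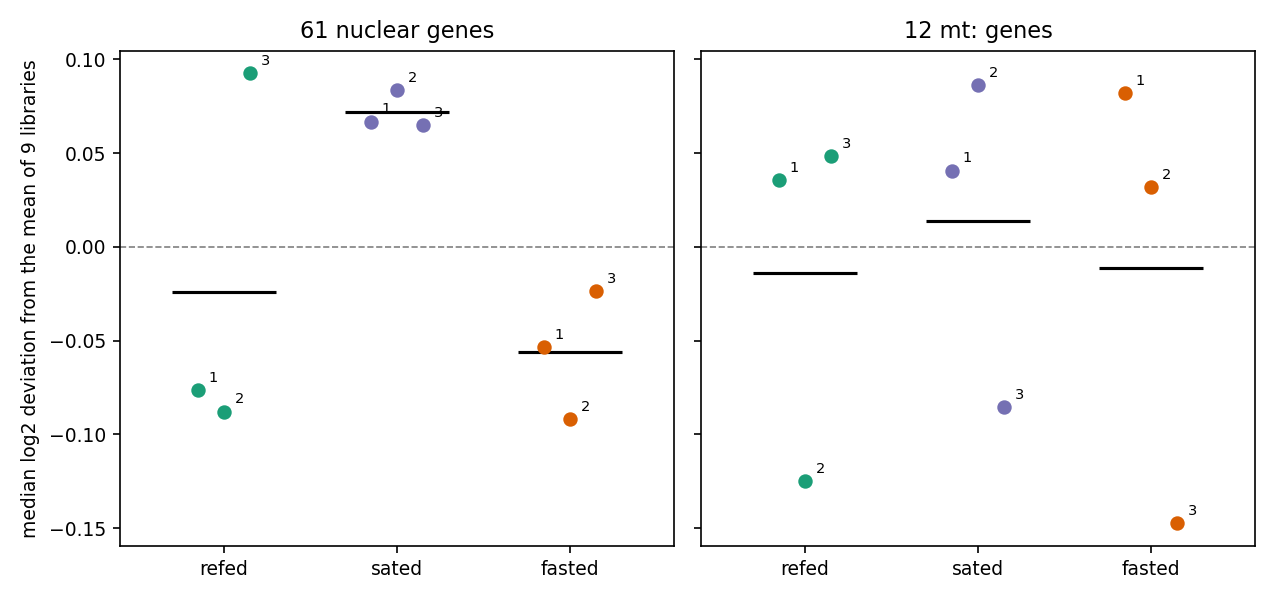
Median log2 deviation of the nuclear and mitochondrial genes in each library from each gene's mean over the 9 libraries, with replicate numbers beside the points and group means as bars. The 3 sated libraries lie between 0.065 and 0.084 for the nuclear genes and the fasted libraries between -0.092 and -0.024, refed replicate 3 lies apart from refed replicates 1 and 2, and the groups overlap for the mitochondrial genes.

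ATPsynC (FBgn0039830, BDGP6 chromosome 3R, 31216145 to 31219630, minus strand) came closest to the threshold. It read 631, 618 and 663 CPM in the sated libraries, 544, 518 and 611 CPM in the fasted libraries and 543, 560 and 597 CPM in the refed libraries. Every sated library was thus above every fasted and every refed library, while refed and fasted libraries overlapped. The log2 fold change was 0.19 (SE 0.057, adjusted p = 0.298) in sated against fasted brains, -0.17 (SE 0.052, adjusted p = 0.232) in refed against sated brains and 0.01 (SE 0.065, adjusted p = 0.994) in refed against fasted brains. The call depended on the processing. In sated against fasted brains the gene passed with DESeq2 (adjusted p = 0.0333) and without fasted replicate 3 (log2 fold change 0.26, adjusted p = 0.0487). The latter leaves in the fasted group only the 2 libraries of highest opposite-strand share. Fasted replicate 3, with a low share, read 611 CPM beside 618 CPM in sated replicate 2. No other alternative called the gene in this comparison (for example adjusted p = 0.312 in edgeR with RLE size factors and 0.242 with no filter). In refed against sated brains it passed without refed replicate 3 (log2 fold change -0.21, adjusted p = 0.0462).

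ATPsynbeta (FBgn0010217, chromosome 4, 1031484 to 1034917, plus strand) read 649, 630 and 612 CPM in sated, 600, 555 and 577 CPM in fasted and 605, 559 and 632 CPM in refed libraries. The sated libraries were all above the fasted ones, by 0.12 on the log2 scale (SE 0.039, adjusted p = 0.320), and the refed libraries overlapped both groups. ATPsyngamma, of the central stalk, did not overlap between sated libraries (151 to 155 CPM) and either fasted (142 to 145 CPM) or refed libraries (137 to 149 CPM), with a log2 fold change of 0.09 in sated against fasted brains (adjusted p = 0.508). ATPsynB, of the peripheral stalk, was also separated in the same way from fasted brains alone (150 to 157 against 136 to 145 CPM).

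ATPsyndelta, also of the central stalk, and the paralog ATPsynCF6L were the other 2 complex V genes whose sated and fasted libraries did not overlap. For ATPsyndelta the sated libraries read 63.1 to 66.2 CPM and the fasted libraries 53.0 to 60.1 CPM. Of its exon length 35.6% is covered by CG2962 on the opposite strand. For ATPsynCF6L the values were 6.90 to 10.0 and 5.04 to 5.97 CPM, the largest log2 difference of the complex at 0.52 (SE 0.21, adjusted p = 0.457). The 6 remaining genes of complex V overlapped between sated and fasted brains, with log2 fold changes from 0.07 (ATPsynF) to 0.21 (ATPsynCF6).

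**Figure D4:**
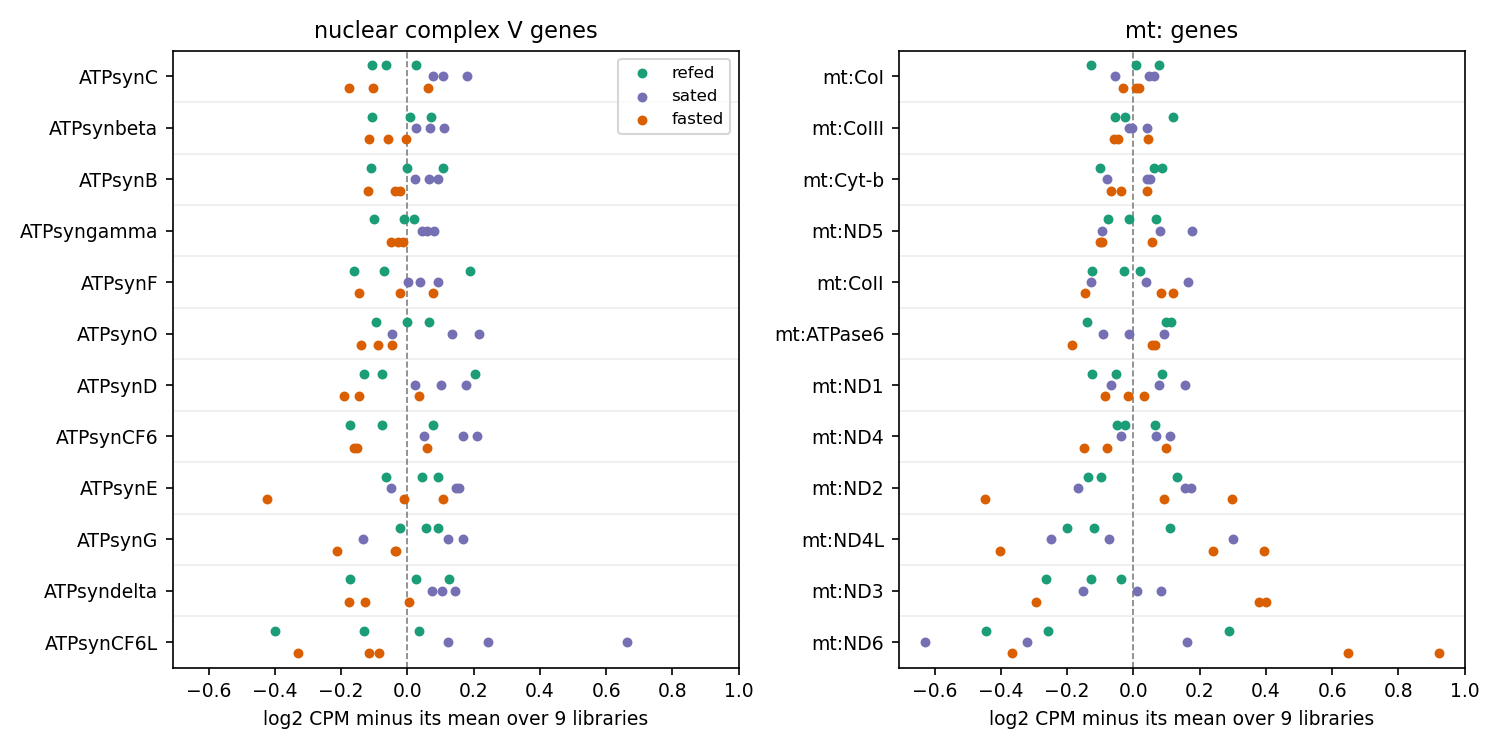
Log2 CPM of each gene in each library minus the gene's mean over the 9 libraries, for the 12 nuclear genes of complex V and the 12 mitochondrial genes with a mean of at least 20 counts, ordered by level per kilobase with the highest at the top. For ATPsynC the 3 sated libraries lie to the right of all others. The mitochondrial genes overlap between groups, and the 4 lowest ones, mt:ND2 to mt:ND6, spread most within the fasted group.

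In complex III, UQCR-6.4 (FBgn0034245, chromosome 2R, 17572096 to 17572784, minus strand) had the largest log2 difference between sated and fasted brains among the tested nuclear genes that are not L paralogs. It read 13.9, 14.8 and 14.4 CPM in sated, 12.5, 13.1 and 15.0 CPM in refed and 9.33, 8.66 and 12.5 CPM in fasted libraries. All sated and all refed libraries were above all fasted ones, though refed replicate 1 and fasted replicate 3 were close, at 12.46 and 12.45 CPM. The log2 fold change was 0.48 (SE 0.16, adjusted p = 0.347) in sated and 0.38 (SE 0.16, adjusted p = 0.705) in refed against fasted brains, and 40.5% of the exon length of the gene is covered by POSH on the opposite strand. UQCR-Q, a small subunit, read 35.98 to 43.4 CPM in sated and 31.8 to 36.8 CPM in refed libraries, which overlapped (log2 fold change -0.24, adjusted p = 0.367). UQCR-C1 lay between 217 and 247 CPM in all 9 libraries, and UQCR-11L between 3.43 and 5.70 CPM, with no separation between any groups.

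In complex I, 9 of the 34 nuclear genes did not overlap between sated and fasted libraries, all higher in sated brains. ND-MLRQ, an accessory subunit, was the 1 of these with an unadjusted p under 0.05 (33.5 to 36.1 against 29.2 to 31.0 CPM, log2 fold change 0.21, adjusted p = 0.400). ND-75, the largest subunit of the arm that carries electrons from NADH, took another course. It read 225, 222 and 224 CPM in refed, 210, 200 and 225 CPM in sated and 199, 184 and 216 CPM in fasted libraries. The refed libraries were all above the fasted ones, by 0.15 on the log2 scale (SE 0.058, adjusted p = 0.705), and overlapped the sated ones. ND-AGGG, a small accessory subunit with a mean of 30.3 counts per library, read 3.37 to 4.25 CPM in refed, 4.50 to 6.33 CPM in sated and 3.92 to 4.83 CPM in fasted libraries. Its log2 fold change in refed against sated brains was -0.61 (SE 0.23, adjusted p = 0.351). ND-51 overlapped between all groups, at 154 to 193 CPM.

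In complex IV, COX4 (137 to 154 CPM in sated, 124 to 134 CPM in fasted libraries) and COX7C (39.6 to 42.9 against 34.6 to 38.0 CPM) were the 2 genes whose sated and fasted libraries did not overlap, with log2 fold changes of 0.16 and 0.18 and adjusted p of 0.369 and 0.474. COX6B overlapped between all groups, at 97.3 to 120 CPM. The paralog COX5BL, which had 116 counts in all, read 1.30 to 1.78 CPM in refed and 2.01 to 2.61 CPM in fasted libraries, and was the only tested member lower in every refed than in every fasted library (log2 fold change -0.66, SE 0.34, adjusted p = 0.717). Its exons lie wholly under Trmt6 on the opposite strand.

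In refed against sated brains most nuclear genes were on the other side of zero, and this comparison shares the sated libraries with the one above. The mean was lower in refed brains for 55 of the 61 nuclear genes, with a median log2 fold change of -0.09 (49.1% of all genes had a change above 0), including all 7 genes of complex III, all 8 of complex IV and all 12 of complex V. The groups did not overlap for 8 of the 74 members, all lower in refed brains, or 10.8% beside 8.32% of all genes in that direction, which is near the background. 1 library weighed on these values. Refed replicate 3 was the highest of its group for 50 of the 61 nuclear genes. Without it the median was -0.16 and 21 members in place of 6 had an unadjusted p under 0.05. The fitted change was then below 0 for 59 genes, leaving 2 above 0. Without refed replicate 2 the complex V median was -0.05 in place of -0.10, and 1 member had an unadjusted p under 0.05. 3 members did so without refed replicate 1 or without sated replicate 2.

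Between refed and fasted brains the directions of the nuclear genes were mixed. The fitted change was above 0 in refed brains for 36 of the 61 nuclear genes, with a median log2 fold change of 0.01. Over all genes tested, 47.1% had a change above 0. In complex V the fitted change was above 0 for 11 of 12 genes, with a median of 0.04. In complex IV this held for 2 of 8 genes, with a median of -0.03. By mean CPM, scaled over all 9 libraries, the fasted group was the lowest of the 3 for 41 of the 61 nuclear genes. The same held for all 12 of complex V. The share of all genes with the lowest mean in the fasted group was not computed. The refed and fasted libraries were separated for 3 members higher and 1 lower in refed brains. These were 4.05% and 1.35% of those tested, beside 7.59% and 4.75% of all genes. Leaving out the 3 libraries of high opposite-strand share sets the refed group against fasted replicate 3 alone. The fitted change was then above 0 for 5 of 12 genes of complex V, with a median of -0.02. Without refed replicate 3, it was above 0 for 24 of the 61 nuclear genes. The 2 members at an unadjusted p under 0.05, both nuclear, became 1 without refed replicate 1 and 6 without refed replicate 3. Of these 6, all nuclear, 2 were higher in refed brains. The number was 0 without fasted replicate 1 or 2 and 8 without fasted replicate 3. Of these 8, 3 were nuclear and the rest mitochondrial, and 2 were higher in refed brains.

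No difference between feeding states was detected for the mitochondrial genes. Their summed share of gene counts was 2.17% ± 0.166 (SD, n = 3) in refed, 2.15% ± 0.0898 (SD, n = 3) in sated and 2.13% ± 0.0678 (SD, n = 3) in fasted brains, and the libraries of the 3 groups overlapped. The median log2 fold change of the 12 genes was -0.02 in refed against fasted, 0.02 in sated against fasted (9 of 12 with a higher sated mean) and -0.06 in refed against sated brains. In sated against fasted brains that median was -0.04 without fasted replicate 3, 0.06 without sated replicate 3, 0.08 from unstranded counts, 0.09 with the opposite-strand share in the fit and 0.12 without the 3 libraries of high share. In the main fit none of the 12 had an unadjusted p under 0.05 in any comparison, and no pair of groups was separated for any of them. Without fasted replicate 3, 8 members passed that level in refed against fasted brains, of which 3 were nuclear and the rest mitochondrial. The smallest adjusted p among members was then 0.0776 by edgeR. With the opposite-strand share in the fit, 13 members passed that level in sated against fasted brains, of which 9 were nuclear and the rest mitochondrial. For mt:CoI the 95% interval of the log2 fold change ran from -0.07 to 0.11 in sated against fasted brains and from -0.17 to 0.12 in refed against fasted brains, and for mt:CoIII from -0.06 to 0.11 and from -0.12 to 0.16. The interval for mt:Cyt-b in sated against fasted brains was -0.08 to 0.12 and that for mt:ATPase6 was -0.14 to 0.17.

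Per library, mt:CoI read 10239, 9319 and 10734 CPM in refed, 10627, 10510 and 9788 CPM in sated and 10303, 10233 and 9955 CPM in fasted brains. The range over all 9 libraries was thus 1.15-fold, with no order among the groups. mt:ND5, the most abundant mitochondrial gene of complex I, read 2708, 2450 and 2562 CPM in refed, 2918, 2729 and 2418 CPM in sated and 2686, 2410 and 2417 CPM in fasted brains, a range of 1.21-fold. The mitochondrial genes moved together between libraries within a group, and refed replicate 2, sated replicate 3 and fasted replicate 3 were the lowest of their group for 10, 10 and 9 of the 12 genes.

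The mitochondrial genes of lowest level varied more, and mostly in the fasted group. mt:ND2 read 359, 312 and 215 CPM in fasted, 330, 326 and 260 CPM in sated and 320, 273 and 266 CPM in refed libraries. mt:ND6 read 6.15, 7.45 and 3.05 CPM in fasted, 3.15, 4.39 and 2.54 CPM in sated and 4.803, 2.89 and 3.29 CPM in refed libraries. Fasted replicates 1 and 2, the libraries with the most opposite-strand counts, had the highest values of all 9 libraries for mt:ND3 and mt:ND6. mt:ND4L was highest in fasted replicate 2 (13.7 CPM), then in sated replicate 2 (12.8 CPM) and fasted replicate 1 (12.3 CPM). The fitted log2 fold change of mt:ND6 was -0.71 in sated (SE 0.37, adjusted p = 0.588) and -0.58 in refed (SE 0.36, adjusted p = 0.764) against fasted brains. That of mt:ND3 was -0.19 (adjusted p = 0.822) and -0.33 (adjusted p = 0.780). The part of the opposite-strand counts in these values was not tested. For mt:CoI the opposite strand held 13.3% and 15.8% of the counts in fasted replicates 1 and 2, 10.4% in sated replicate 2 and 3.02% to 4.64% in the other libraries.

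The balance between the genomes overlapped between feeding states. The ratio of summed mitochondrial to summed nuclear counts was 4.93 ± 0.233 (SD, n = 3) in fasted, 4.82 ± 0.205 (SD, n = 3) in refed and 4.65 ± 0.243 (SD, n = 3) in sated brains. The libraries of all groups overlapped, from 4.37 in sated replicate 3 to 5.07 in fasted replicate 1. By complex, the ratio lay between 22.7 and 26.7 in complex IV, between 3.33 and 4.09 in complex III, and between 3.08 and 3.61 in complex I. It lay between 0.441 and 0.574 in complex V, the only one of the 4 for which nuclear counts outnumbered mitochondrial ones. In complex IV the ratio was 22.7 to 23.6 in sated and 24.4 to 24.8 in fasted libraries, which did not overlap. The difference of the medians, mitochondrial minus nuclear, was -0.10 on the log2 scale in sated against fasted brains, -0.17 without fasted replicate 3, -0.05 without fasted replicate 2, -0.02 with the opposite-strand share in the fit and 0.03 without the 3 libraries of high opposite-strand share. The last of these sets 2 sated libraries against fasted replicate 3 alone, which had the lowest median deviation of all 9 libraries for the mitochondrial genes (-0.147).

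Genes of the same pathway outside the 93 did not share 1 direction. The mean was higher in sated than in fasted brains for 3 of 4 tested subunits of complex II, 4 of 7 respiratory subunits with other symbols and 3 of 4 carriers, but for 1 of 7 assembly factors, 2 of 9 genes of mitochondrial DNA upkeep, 2 of 6 of mitochondrial RNA processing and 4 of 7 regulators. All 4 subunits of complex II were tested and 0 were called by edgeR or DESeq2 (1 had an unadjusted p under 0.05 in sated against fasted brains). The log2 fold changes in sated against fasted brains were 0.04 for SdhA, -0.05 for SdhB, 0.31 for SdhC (adjusted p = 0.447) and 0.16 for SdhD. Of 7 tested respiratory subunits that carry other symbols 0 were called by either tool and 0 had an unadjusted p under 0.05. blw is the alpha subunit of the ATP synthase and the partner of ATPsynbeta in its catalytic head. It read 849 to 906 CPM in sated and 811 to 863 CPM in fasted libraries (log2 fold change 0.07, adjusted p = 0.621). sun, also a subunit of the ATP synthase, had a lower mean in sated (24.6 CPM) than in fasted brains (26.0 CPM). Its libraries overlapped, at 21.8 to 28.1 CPM in sated, 23.0 to 27.8 CPM in fasted and 20.8 to 25.1 CPM in refed brains. sesB, the main ADP/ATP carrier of the inner membrane, read 1106 to 1168 CPM in sated, 1003 to 1068 CPM in fasted and 982 to 1043 CPM in refed libraries. Sated brains were thus above both other groups (log2 fold change 0.13 over fasted, adjusted p = 0.261). It shares 5.08% of its exon length with Ant2 on the same strand, and it passed with DESeq2 in sated against fasted brains (adjusted p = 0.0415).

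Of 7 tested assembly factors of the respiratory complexes 1 was called. Sirup (starvation-upregulated protein, FBgn0031971, chromosome 2L, 7998869 to 7999676, plus strand), which helps to assemble complex II, read 57.0, 57.0 and 56.8 CPM in sated, 103, 90.2 and 87.5 CPM in fasted and 90.7, 97.6 and 105 CPM in refed libraries. The sated libraries lay far below all others and refed and fasted libraries overlapped. The log2 fold change of Sirup was -0.72 in sated against fasted brains (SE 0.073, adjusted p = 0.00392) and 0.78 in refed against sated brains (SE 0.067, adjusted p = 0.00223). The first of these did not pass without sated replicate 1 (log2 fold change -0.72, adjusted p = 0.0639) or without the 3 libraries of high opposite-strand share (-0.63, adjusted p = 0.126), where fasted replicate 3 stands alone against 2 sated libraries. Among 9 tested genes for upkeep and transcription of mitochondrial DNA, 6 for mitochondrial RNA processing and 7 regulators of mitochondrial gene expression 0 were called by edgeR or DESeq2 in any comparison, and between 0 and 2 of each list had an unadjusted p under 0.05. Of the 9 upkeep genes 8 had a higher mean in refed than in sated brains, with a median log2 fold change of 0.18. PolG1, the catalytic subunit of the mitochondrial DNA polymerase, was the 1 with the smallest p (0.39, adjusted p = 0.381). Among the regulators ewg, the fly counterpart of a vertebrate activator of nuclear respiratory genes, came closest, at 183 to 194 CPM in refed and 153 to 166 CPM in sated libraries (log2 fold change 0.25, adjusted p = 0.0727). It passed with no filter (adjusted p = 0.0301) and with all 9 libraries in 1 fit (adjusted p = 0.0455).

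The summed photoreceptor and fat body markers were also higher in the sated libraries than in the others. The 8 photoreceptor markers, none of them at 0, summed to between 2035 and 2202 CPM in sated, 1280 and 1791 CPM in fasted and 1502 and 1720 CPM in refed libraries. All 8 had a higher mean in sated than in fasted brains (median log2 fold change 0.67) and a lower one in refed than in sated brains, where Arr1 (adjusted p = 0.0477) and trpl (adjusted p = 0.0473) passed the test. DESeq2 called 5 of the 8 in refed against sated brains (Arr1, Arr2, inaC, ninaC and trpl) and norpA in sated against fasted brains. Both edgeR calls were lost with all 9 libraries in 1 fit (adjusted p = 0.342 and 0.271), without refed replicate 2 (0.178 and 0.169), without sated replicate 1 (0.261 and 0.129) and without sated replicate 3 (0.120 and 0.0794). That of trpl was lost also without refed replicate 1 (0.105). The 5 fat body markers, of which 1 was at 0 throughout and nearly all counts were apolpp, summed to between 1722 and 2375 CPM in sated, 1229 and 1500 CPM in fasted and 998 and 1459 CPM in refed libraries, and apolpp was called by DESeq2 but not by edgeR in both comparisons with the sated group. Muscle markers summed to 273 CPM in fasted replicate 2 and to between 19.1 and 74.8 CPM in the other libraries. The 4 hemocyte markers summed to between 183 and 345 CPM in sated, 150 and 262 CPM in fasted and 160 and 256 CPM in refed libraries. These ranges overlapped. The part of retinal, fat body, muscle or blood cell RNA in the differences between sated and other brains was not tested.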

How the data were processed

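RNA was measured by sequencing of total RNA from central brains, in 3 refed, 3 sated and 3 fasted libraries, grouped by their sample titles. Raw counts of reads per gene, made by the authors with STAR and not normalized, were deposited for 17489 genes, both regardless of strand and for each strand. The submitters' processing notes name SAMtools 1.4, HTSeq, DESeq2 1.18.0 and the build BDGP6. The versions of STAR and of the annotation are not given in the sources used here. The count on the gene's own strand was used (column 3 of each file). A read on the opposite strand is thus not counted for the gene and can be counted for a gene annotated there. The 3 libraries of high opposite-strand share had the most reads mapping to several places (1609151 to 2001518, beside 981963 to 1164317 in the others). They also had the most reads on no gene (3592404 to 3958649, beside 2728630 to 3274923). The reason was not tested. Reads that map to several places are not counted.

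The analysis used edgeR 4.0.16 in R 4.3.3. For each pair of groups, on its own 6 libraries, genes were filtered with filterByExpr (minimum count 10), scaled by TMM and compared by quasi-likelihood F tests, with Benjamini-Hochberg adjustment over all genes tested and a threshold of 0.05. A standard error is the size of the log2 fold change over the root of its F statistic. CPM use TMM factors over all 9 libraries, and levels per kilobase divide by the union of exons in the Ensembl annotation of BDGP6, where 17215 of the gene identifiers were found, and a gene's symbol came from the gene name table. Summaries over members are descriptions without a test. The procedure was tested on simulated counts.

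Genes named are the members with the smallest p in each comparison (3 nuclear and 2 mitochondrial), the nuclear gene highest per kilobase in each complex, the highest paralog, all mitochondrial genes, and of each other list any called gene and the gene with the smallest p. That last rule also selected scu (mitochondrial RNA processing), brp (neurons), Eaat1 (glia), Hml (hemocytes) and Mlc2 (muscle). For these only their lists are described. Other members are named after their values were seen, for non-overlapping groups or as paralogs. The members and lists were chosen with earlier results of these data known. Of the listed genes outside the 93, those without a match by symbol were left out. Alternatives were DESeq2 1.42.0, RLE size factors, no filter, all 9 libraries in one fit, a replicate block, unstranded counts, mitochondrial genes left out of the scaling, the opposite-strand share as a covariate and each library left out. Leaving out the 3 libraries with over 15% opposite-strand counts was added after seeing the data.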

Additional observations from a re-analysis of the deposited data

How the results depend on the processing

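Under every alternative the median log2 fold change of the nuclear genes stayed above 0 in sated against fasted and below 0 in refed against sated brains. In refed against fasted brains it took both signs. Leaving out each library in turn, it ranged from -0.02 to 0.05 in refed against fasted and from 0.09 to 0.15 in sated against fasted brains. In refed against sated brains it ranged from -0.16 to -0.07, and the value of -0.16, without refed replicate 3, stood in place of -0.09. The SD of the library medians within groups was 0.062 for the nuclear genes. With the 3 libraries of high opposite-strand share left out, an alternative chosen after seeing the data that keeps 1 fasted library (replicate 3), the mitochondrial median in refed against fasted brains was 0.12 in place of -0.02 and the difference of medians 0.13 in place of -0.03. In sated against fasted brains that difference was 0.0313 in place of -0.0954. The cause was not tested. The count of members called in sated against fasted brains was 1 in place of 0 with DESeq2. With libraries left out in turn it ranged from 0 to 1 there and in refed against sated brains. From unstranded counts the mitochondrial share was 2.03% in sated and 1.92% in fasted brains, since counts on both strands then enter the total. Over all genes DESeq2 called 28, 110 and 51 against 10, 24 and 16 by edgeR.

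Same-numbered libraries were not treated as paired in the main fit. Correlations of their deviations lay between -0.071 and 0.348. In sated against fasted brains those of replicates 2 and 3 were the highest (0.338 and 0.348), beside -0.457 to 0.231 for libraries of different number. Whether same-numbered libraries shared a batch was not tested. A replicate block gave 6, 72 and 11 calls over all genes and 0 members in each comparison, with a smallest adjusted p among members of 0.0568 in sated against fasted brains. Low counts limit the paralogs, mt:ND3 and mt:ND6.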
